A study of Mus musculus with 16 samples.

Results

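Selenbp1, Selenbp2, Upp2, Tff3, Pls1 and Cib3 are 6 of the 51912 genes in the deposited liver count table. Selenbp2, Upp2, Tff3, Pls1 and Cib3 were chosen by their measured expression, because their levels were lower on a low isoleucine diet than on a control diet in livers of fasted mice. Selenbp1 was added as the paralog of Selenbp2 and not for its own level. The fasted diet difference therefore chose 5 of the 6 genes and is given here as a description, without a test. All 6 genes had enough counts to be among the 14920 genes tested.

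Livers came from 16 male mice, with 1 poly-A enriched, stranded RNA library per mouse. The mice ate either the control amino acid (Control AA) diet or the low isoleucine diet, which holds less of this essential branched-chain amino acid. The diets began at 10 weeks of age and lasted 3 weeks, and all mice were 13 weeks old at harvest. Within each diet, 4 livers were taken after a 16 h fast and 4 after refeeding. The 4 groups are named by diet and state: control fasted, low isoleucine fasted, control refed, low isoleucine refed. The labels name no strain, genotype or transgene, and state no length for the refeeding. Each group carries a single number in its labels (1, 2, 7 or 9), so whatever that number marks cannot be told apart from diet and feeding state. Libraries are numbered 1 to 4 within a group in the order of the marks RL, R, L and N.

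Total counts ran from 24368656 to 34002955 per library. The defining hepatocyte markers summed to between 69200 and 124000 CPM in every library. CPM here are counts scaled by the TMM method to a common effective library size. The TMM factor of control refed library 4, at 1.21, was the highest of all. In the control refed group the Kupffer cell, endothelial cell and stellate cell lists reached 688, 382 and 713 CPM. The lymphocyte and neutrophil lists reached 29.3 and 3.52 CPM there. Each was above the list's highest sum in the other 3 groups. These are group ranges, so which library held each peak is not given. Results that involve the control refed group are also given without library 4, which had the highest TMM factor, where they moved.

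The 6 genes belong to different families. Selenbp1 and Selenbp2 encode selenium-binding proteins of the liver cytosol: the human SELENBP1 protein is a methanethiol oxidase, which turns a sulfur-containing gas made by gut bacteria into hydrogen sulfide, hydrogen peroxide and formaldehyde, and mouse Selenbp2 was first described as an acetaminophen-binding liver protein. Upp2 encodes a uridine phosphorylase, which splits the nucleoside uridine into uracil and ribose 1-phosphate, and the liver is a main site of uridine breakdown. Tff3 encodes a small secreted trefoil peptide best known from intestinal goblet cells, where it takes part in mucosal repair. Pls1 encodes plastin 1, which bundles actin filaments in intestinal microvilli and in the stereocilia of the inner ear. Cib3 encodes a calcium-binding protein with EF hands, known in mice as a partner of the mechanotransduction channel of hair cells.

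Selenbp1 and Selenbp2 lie on the same strand of chromosome 3 and are nearly the same sequence, which bears on how reads could be assigned to each. The coding sequences of the transcripts Selenbp1-201 and Selenbp2-201 in GENCODE M21 were both 1416 bases long and differed at 18 of them, an identity of 98.7%. The longest run without a difference was 193 bases. Of all stretches of 50 bases in the Selenbp1 transcript, 52.3% also occurred in the Selenbp2 transcript, and of all stretches of 100 bases 21.3% did. The following stretch of 120 coding bases, from base 288 to 407 of the coding sequence, holds 4 of the 18 differences, which are in capitals, and shows what distinguishes the genes where differences are present.
Selenbp1: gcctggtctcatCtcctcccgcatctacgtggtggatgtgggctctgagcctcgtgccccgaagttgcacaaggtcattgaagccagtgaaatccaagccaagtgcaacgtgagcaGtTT
Selenbp2: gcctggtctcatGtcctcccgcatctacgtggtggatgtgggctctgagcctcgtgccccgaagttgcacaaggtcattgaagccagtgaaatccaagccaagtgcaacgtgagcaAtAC

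The likeness extended into the promoters. The RefSeq promoter windows, which run from 250 bases before to 50 bases after each start site (build GRCm38.p6), matched at 272 of 288 aligned bases, or 94.4%. They are shown because the fasted diet difference that chose Selenbp2 was much smaller for Selenbp1, while their promoter letters are nearly alike. Capitals mark bases that differ or have no partner in the alignment. The first window is chr3:94932833-94933132 and the second is chr3:94693323-94693622, both on the plus strand.
Selenbp1: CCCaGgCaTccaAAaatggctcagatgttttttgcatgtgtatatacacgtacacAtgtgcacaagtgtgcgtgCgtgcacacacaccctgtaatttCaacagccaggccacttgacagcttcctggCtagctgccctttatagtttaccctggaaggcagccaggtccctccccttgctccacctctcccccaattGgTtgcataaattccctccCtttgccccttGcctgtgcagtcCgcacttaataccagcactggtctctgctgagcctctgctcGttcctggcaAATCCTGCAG
Selenbp2: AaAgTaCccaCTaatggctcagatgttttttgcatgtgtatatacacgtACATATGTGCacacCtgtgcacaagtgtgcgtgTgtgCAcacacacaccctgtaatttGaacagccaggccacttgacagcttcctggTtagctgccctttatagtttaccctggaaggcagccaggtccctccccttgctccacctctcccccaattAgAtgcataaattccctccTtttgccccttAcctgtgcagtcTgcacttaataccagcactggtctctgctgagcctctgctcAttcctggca

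Promoter windows were found for 5 of the 6 genes, with 2 windows for Upp2. Both strands were searched for the letters TATAAA (the TATA box), CACGTG (an E-box), TTCNNNGAA (the STAT5 element) and TGATGNAAT (a C/EBP-ATF element). TATAAA lay at position -29 relative to the start site in 1 of the 2 Upp2 windows, on the strand of the gene. In Selenbp1 and Selenbp2 it lay at -113 and -103 on the opposite strand, so their windows read TTTATA there. On either strand, 13.6% of 32851 mouse promoter windows hold it. The other 3 motifs, held by 7.15%, 8.3% and 0.965% of all windows, had no match in these windows.

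Averaged over the 16 libraries and divided by merged exon length, Selenbp1 was the most abundant at 88.7 CPM per kb, higher than 97% of the 14898 genes with a length. Selenbp2 followed at 32.5, Upp2 at 30.8, Tff3 at 11, Cib3 at 2.34 and Pls1 at 0.289 CPM per kb. Before division by length Upp2, with 7761 merged exon bases, had a higher mean than Selenbp1, at 239 against 202 CPM. The lowest 2 genes rested on few reads: Pls1 had 4 to 106 counts per library and Cib3 had 6 to 660. Tff3, with only 493 merged exon bases, also rested on few reads, at 13 to 557 counts per library. Variation between mice of 1 group was large for 5 of the 6 genes. The biological coefficient of variation was 0.629 for Selenbp2, 0.343 for Upp2, 0.548 for Tff3, 0.416 for Pls1 and 0.688 for Cib3, which placed them between percentile 87.4 and percentile 98.4 of tested genes, against 0.175 and percentile 43.2 for Selenbp1.

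**Figure D1:**
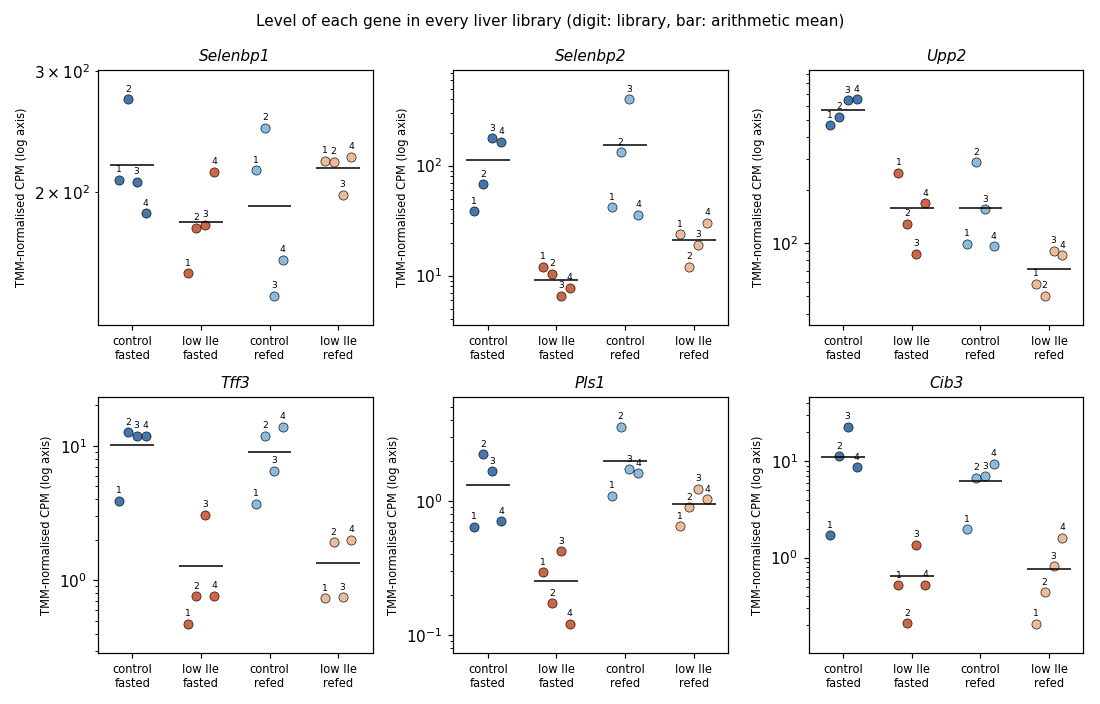
Level of each gene in all 16 libraries, in TMM-normalised CPM on a log axis, by diet and feeding state; points are libraries with their number and bars are arithmetic means of 4 libraries. For Selenbp2, Upp2, Tff3 and Cib3 every low isoleucine library lies below every control library of the same feeding state; for Pls1 this holds in fasted liver alone, and the Selenbp1 groups overlap.

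Selenbp1 (ENSMUSG00000068874, GENCODE M21, chromosome 3 from 94933056 to 94944758) was at 208, 273, 207 and 186 CPM in control fasted livers. It was at 152, 177, 179 and 214 CPM in low isoleucine fasted livers, at 215, 248, 141 and 159 CPM in control refed livers and at 222, 221, 198 and 225 CPM in low isoleucine refed livers. The groups overlapped in both feeding states. The diet log2 fold change (low isoleucine minus control throughout) was -0.28 in fasted liver as a description. In refed liver it was 0.18 (SE 0.165, 95% interval -0.17 to 0.53, adjusted p = 0.772), so a fall of the size seen for Selenbp2 lies outside the interval.

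Selenbp2 (ENSMUSG00000068877, chromosome 3 from 94693556 to 94704413) was at 38.3, 67.8, 177 and 164 CPM in control fasted livers and at 12, 10.4, 6.56 and 7.7 CPM in low isoleucine fasted livers. It was at 41.8, 132, 402 and 35.8 CPM in control refed livers and at 23.8, 12.1, 19 and 30.1 CPM in low isoleucine refed livers. The control livers spread widely and the low isoleucine livers lay close together, with no overlap in either feeding state. Group means were 112 ± 69 and 9.17 ± 2.48 CPM in fasted and 153 ± 172 and 21.3 ± 7.62 CPM in refed livers (SD, n = 4). The fasted log2 fold change was -3.61, or 12.2-fold lower, as a description. The refed log2 fold change was -2.84 (SE 0.715, 95% interval -4.38 to -1.31, unadjusted p = 0.00138, adjusted p = 0.158), which did not pass. Control refed library 3 carried much of its size: without it the log2 fold change was -1.72 (adjusted p = 0.375), and without library 4 it was -3.19 (adjusted p = 0.0633).

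Upp2 (ENSMUSG00000026839, chromosome 2 from 58567298 to 58792971) was at 463, 518, 641 and 652 CPM in control fasted livers and at 250, 129, 87 and 168 CPM in low isoleucine fasted livers. It was at 99.3, 286, 155 and 95.9 CPM in control refed livers and at 59.1, 50.4, 90.3 and 85.5 CPM in low isoleucine refed livers. Control fasted livers had the highest Upp2 levels, above every library of the other groups. Low isoleucine refed livers had the lowest mean, at 71.3 ± 19.6 CPM, but overlapped with low isoleucine fasted livers, where library 3 was at 87 CPM. Low isoleucine fasted livers (158 ± 69.2 CPM) and control refed livers (159 ± 89 CPM) also overlapped (SD, n = 4). The fasted diet log2 fold change was -1.84, 3.59-fold lower, as a description. In refed liver it was -1.16 (SE 0.354, 95% interval -1.91 to -0.41, unadjusted p = 0.00503, adjusted p = 0.275), which did not pass, and -0.73 (adjusted p = 0.47) without control refed library 2. Between the fasted and the refed groups the log2 fold change (refed minus fasted) was -1.84 on the control diet, where the groups did not overlap, and -1.15 on low isoleucine, where they did. No test is given for these feeding differences, because the fasted libraries chose the gene. The share of all tested genes without overlap between feeding states was not counted.

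Tff3 (ENSMUSG00000024029, chromosome 17 from 31125306 to 31129646) was at 3.91, 12.6, 11.8 and 11.9 CPM in control fasted livers and at 0.477, 0.76, 3.07 and 0.764 CPM in low isoleucine fasted livers. It was at 3.7, 11.9, 6.51 and 13.8 CPM in control refed livers and at 0.734, 1.92, 0.748 and 2.01 CPM in low isoleucine refed livers. The diets did not overlap in either state, although low isoleucine fasted library 3 came close to control fasted library 1. Group means in fasted and refed livers were 10.1 ± 4.12 and 8.98 ± 4.69 CPM on the control diet and 1.27 ± 1.21 and 1.35 ± 0.708 CPM on low isoleucine (SD, n = 4). The fasted diet log2 fold change was -2.96, 7.8-fold lower, as a description. In refed liver it was -2.73 (SE 0.592, 95% interval -4 to -1.47, unadjusted p = 0.000335, adjusted p = 0.0877), which was the nearest of the 6 genes to the threshold but did not pass. In a bulk library, fewer cells of a type and less RNA per cell cannot be told apart. The summed cholangiocyte markers, of which 12 of 15 were tested and 0 passed, spanned 47.7 to 125 CPM in control fasted, 47.2 to 68 in low isoleucine fasted, 53.4 to 75.9 in refed control livers and 51.2 to 75.5 in refed low isoleucine livers. Most of this sum was Spp1, with means of 54.3 CPM in control fasted and 32.5 CPM in low isoleucine fasted livers. Of the 12 tested cholangiocyte markers 9 had negative and 3 positive log2 fold changes in fasted liver, with a median of -0.14. In refed liver 7 were negative and 5 positive, with a median of 0. Their part in the Tff3 level was not tested. Of 13 goblet and intestinal epithelium markers only Fabp2 and Lgals4 had enough counts to be tested, 0 passed, Muc2, Spdef, Agr2, Fcgbp and Clca1 had at most 7 counts in any library, and Cdx1, Cdx2 and Reg3g were at 0 in every library. The list's sum, which is almost wholly Fabp2 and Lgals4 and not goblet cell genes, spanned 193 to 234 CPM in control fasted, 210 to 221 in low isoleucine fasted, 161 to 202 in refed control livers and 130 to 179 in refed low isoleucine livers. Of 10 exocrine pancreas markers 1 was tested and did not pass, Cpa1, Cela3b, Pnlip, Try4 and Cel were at 0, and the list summed to 4.37 to 7.58 CPM over all libraries.

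Pls1 (ENSMUSG00000049493, chromosome 9 from 95752642 to 95845311) was the scarcest of the genes, at 0.64, 2.22, 1.66 and 0.706 CPM in control fasted livers and 0.294, 0.173, 0.421 and 0.122 CPM in low isoleucine fasted livers. It was at 1.09, 3.56, 1.72 and 1.61 CPM in control refed livers and at 0.646, 0.899, 1.23 and 1.03 CPM in low isoleucine refed livers. The diets did not overlap in fasted liver, whereas in refed liver low isoleucine library 3 lay above control library 1. The fasted diet log2 fold change was -2.35, 5.09-fold lower, as a description. In refed liver it was -1.07 (SE 0.432, 95% interval -1.98 to -0.16, unadjusted p = 0.0243, adjusted p = 0.43), and -0.65 (adjusted p = 0.644) without control refed library 2. On the low isoleucine diet every refed library was above every fasted library, with a log2 fold change of 1.89. The same held for Selenbp2, with a log2 fold change of 1.22. These feeding differences are descriptions, because low levels in the fasted livers of this diet chose the genes. The share of all tested genes with such a separation was not counted.

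Cib3 (ENSMUSG00000074240, chromosome 8 from 72204335 to 72212837) was at 1.71, 11.3, 22.8 and 8.66 CPM in control fasted livers and at 0.514, 0.207, 1.35 and 0.519 CPM in low isoleucine fasted livers. It was at 1.97, 6.75, 6.99 and 9.4 CPM in control refed livers and at 0.206, 0.434, 0.808 and 1.61 CPM in low isoleucine refed livers. Library 1 was the lowest control liver in both feeding states, and the diets still did not overlap. The fasted diet log2 fold change of -4.07, 16.8-fold lower, was the largest of the 6 genes. In refed liver it was -3.03 (SE 0.762, 95% interval -4.66 to -1.4, unadjusted p = 0.00128, adjusted p = 0.154), which did not pass.

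**Figure D2:**
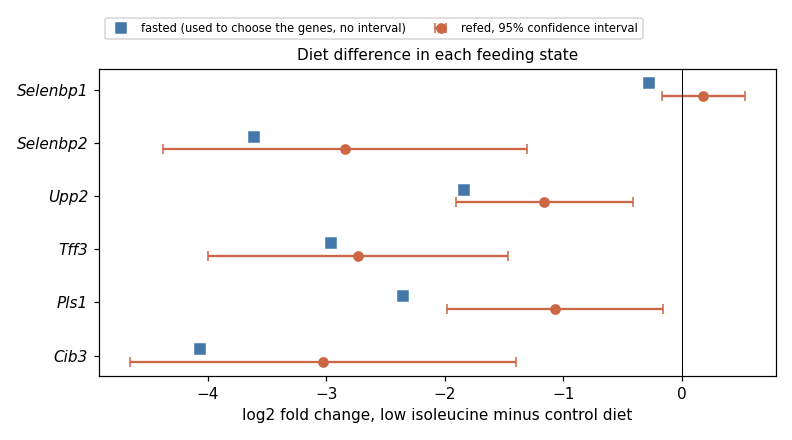
Diet difference of each gene as log2 fold change, low isoleucine minus control, with fasted liver as squares and refed liver as circles with 95% confidence intervals of the edgeR fit. The refed intervals of 5 genes lie below 0 and that of Selenbp1 spans it; the fasted values chose the genes and carry no interval.

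Across the 6 genes, 5 had all 4 low isoleucine libraries below all 4 control libraries in fasted liver, where 4.4% of tested genes did. That count follows from the choice of genes. In refed liver, whose libraries the choice rule did not use although their earlier results were known, 4 of the 6 genes showed the same separation, against 2.24% of the 14920 tested genes. Unadjusted p-values were under 0.05 with a lower level on low isoleucine for 5 of the 6, against 5.8% of tested genes. That count was also 5 without control refed library 4 and without both control refed libraries 3 and 4, and it was 4, without Pls1, when control refed library 2 or low isoleucine refed library 1 was left out. With edgeR's quasi-likelihood test and Benjamini-Hochberg adjustment over all genes 0 of the 6 passed 0.05, where 0.114% of tested genes, 17 in number, passed as lower and 0.174% passed in either direction. The DESeq2 Wald test, run as an alternative, called 4 of the 6 lower at an adjusted p of 0.0497 for Upp2, 0.00375 for Tff3, 0.0087 for Selenbp2 and 0.0159 for Cib3. It called 0.676% of the 16875 genes it tested as lower. The median log2 fold change over all tested genes was 0.01 in fasted and -0.01 in refed liver. In the authors' deposited table for refed mice the adjusted p was 0.174 for Selenbp2, 0.198 for Upp2, 0.0913 for Tff3, 0.46 for Pls1 and 0.0933 for Cib3.

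Because Selenbp1 and Selenbp2 share so much sequence, their counts were also read together. Their values were not whole numbers in any of the 16 libraries, whereas Tff3, Pls1 and Cib3 had whole values throughout and Upp2 a value that was not whole in 1 library. Such values occurred for 38.5% of tested genes. Selenbp2 made up 15.6%, 19.9%, 46.1% and 46.8% of the summed CPM of both genes in control fasted livers and 7.29%, 5.56%, 3.54% and 3.48% in low isoleucine fasted livers. In control refed livers the share was 16.3%, 34.7%, 74% and 18.4%, and in low isoleucine refed livers it was 9.71%, 5.19%, 8.75% and 11.8%. The share was lower in every low isoleucine library than in every control library of the same state. In refed liver the mean share was 35.9% ± 26.7 on the control diet and 8.86% ± 2.76 on low isoleucine (SD, n = 4), a difference of -27 percentage points (exact two-sided permutation test, p = 0.0286, the smallest that 70 arrangements allow). Without control refed library 3 the difference was -14.3 points, and without any 1 of the low isoleucine refed libraries it did not pass (exact permutation p from 0.0857 to 0.114). With these unequal groups the two-sided count took in arrangements of opposite sign, and the shares still did not overlap.

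The sum of both genes does not depend on how reads were divided between them. It was 330 ± 59.3 CPM in control fasted, 190 ± 23.7 in low isoleucine fasted, 344 ± 153 in refed control livers and 238 ± 16.4 in refed low isoleucine livers (SD, n = 4). Tested as a single feature in refed liver, the sum had a log2 fold change of -0.53 (SE 0.233, adjusted p = 0.467 in edgeR's quasi-likelihood test), which did not pass, and -0.22 without control refed library 3. Selenbp1 was lowest among control refed livers in library 3, where Selenbp2 was highest. Whether misassigned reads took part in that opposite ordering was not tested.

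**Figure D3:**
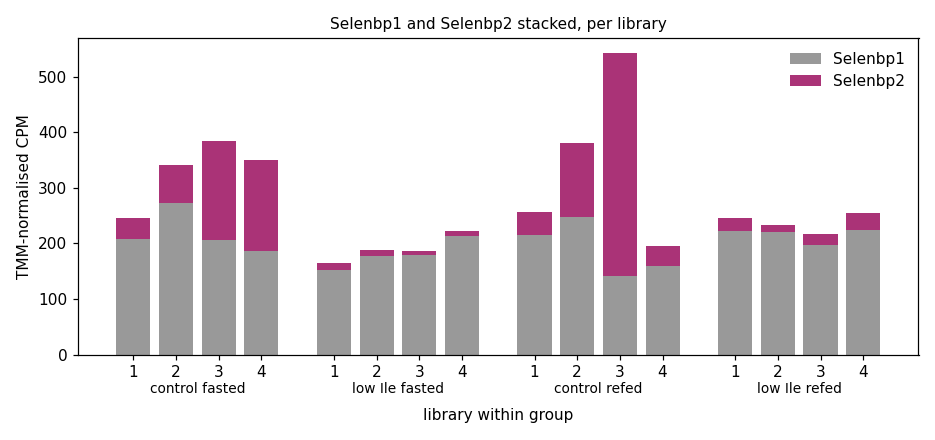
Stacked TMM-normalised CPM of Selenbp1 (grey) and Selenbp2 (magenta) in each of the 16 libraries, by group. The Selenbp2 part is thin in all 8 low isoleucine libraries, at 3.48% to 11.8% of the stack, and is tallest in control refed library 3, at 74%.

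The genes also varied among mice of the same group. After subtracting each group's mean from the log2 CPM, which removes the diet and feeding differences that chose the genes, Tff3 and Cib3 deviated together with Pearson r = 0.74 and Spearman rho = 0.72 over 16 libraries. A permutation test within groups gave p = 0.00516 for r, and the adjusted permutation p over the 15 pairs of the 6 genes was 0.0774, so it did not pass. Leaving out the 2 libraries farthest from the median of Tff3 gave r = 0.63. Pls1 and Cib3 had r = 0.68 and rho = 0.69 (permutation p = 0.0131, adjusted p = 0.0985), and r = 0.75 without the farthest 2 libraries. Selenbp2 and Upp2 had r = 0.58 and rho = 0.67 (permutation p = 0.0443, adjusted p = 0.194), and r = 0.64 without the farthest 2. For rho the adjusted permutation p was 0.054 in each of these 3 pairs. Selenbp1 and Selenbp2 had r = -0.33 and rho = -0.23 (permutation p = 0.44, adjusted p = 0.758), and r = -0.21 without the farthest 2. Of the 15 pairs 12 had a positive r and 0 passed.

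**Figure D4:**
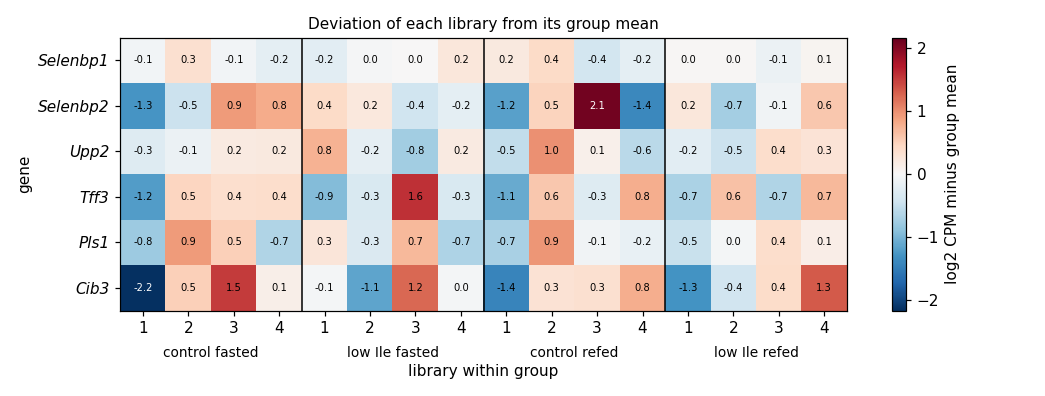
Deviation of each library from its group mean, in log2 CPM, for the 6 genes (rows) and 16 libraries (columns, by group). Tff3, Pls1 and Cib3 are all low in library 1 of the control fasted, control refed and low isoleucine refed groups, and Selenbp2 spans the widest range among control refed livers.

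The genes whose log2 CPM followed each gene most closely over all 16 libraries were taken from 11050 genes with a mean of at least 1 CPM. These correlations include the group differences and share libraries and depth, so they are descriptions. Tff3 and Cib3 were each other's closest match at r = 0.93, and both were followed by Angptl2, an angiopoietin-like secreted protein (0.89 and 0.87), and Anxa5, a phospholipid-binding annexin (0.86 and 0.9). Pls1 was closest to Akr1b3, aldose reductase (0.92), Saa2, an acute-phase serum amyloid (0.87), and H2-Q1, a class I histocompatibility gene (0.86). Of these H2-Q1 passed in refed liver, with a log2 fold change of -2.3 (adjusted p = 0.0341 in edgeR's quasi-likelihood test). Upp2 was closest to Agbl3 (0.91), Arhgef37 (0.88) and Arl6ip1 (0.88), and Selenbp2 to Sntg2 (0.91), Maco1 (0.91) and the complement gene C8b (0.9). Selenbp1 followed a different set: Upb1, the last enzyme of pyrimidine breakdown (0.89), Dcxr, L-xylulose reductase (0.88), and Got2, mitochondrial aspartate aminotransferase (0.87).

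The nearest tested protein-coding genes on either side were Psmb4 and Rfx5 for Selenbp1, Tuft1 and Cgn for Selenbp2, Acvr1 and Ccdc148 for Upp2, Abcg1 and Slc37a1 for Tff3, Trpc1 and Atr for Pls1, and Rab8a and Fam32a for Cib3. Their log2 fold changes lay between -0.58 and 0.3 in both feeding states, and none of these 12 genes passed in either. In the annotation 140 bases lie between Acvr1 and Upp2, and Acvr1 had log2 fold changes of 0.04 and 0.02 in fasted and refed liver.

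The relatives and pathway partners of the 6 genes were counted from lists that leave the 6 out. In fasted liver 0.771% of all tested genes passed in either direction. Of 33 tested genes of uridine and pyrimidine metabolism 1 fell, 1 rose and 31 did not pass in fasted liver, with a median log2 fold change of 0.06. Upp1, the other uridine phosphorylase, fell from 1.61 ± 0.191 to 0.744 ± 0.156 CPM (SD, n = 4; log2 fold change -1.1, SE 0.242, edgeR adjusted p = 0.0437). Nt5c2, a cytosolic nucleotidase, rose from 14.7 ± 0.724 to 23.8 ± 3.29 CPM (log2 fold change 0.69, SE 0.111, edgeR adjusted p = 0.0143). Of the 16 fits that each left out a library, Nt5c2 passed in 14, failing without control fasted library 4 (adjusted p = 0.0562) or low isoleucine fasted library 2 (0.0514). Upp1 passed in 3 of the 16, those without control refed library 3 or 4 or low isoleucine refed library 4. In refed liver 0 of the 33 passed, Upp1 had a log2 fold change of -0.24 and the median was 0.03.

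Of the selenium and thiol metabolism list all 27 genes were tested and 0 passed in either state, with medians of -0.02 and -0.01; 1 passed in fasted liver without control refed library 4 and 1 without low isoleucine fasted library 1. Of 18 genes of the trefoil and mucosal list 5 were tested and 0 passed, with medians of 0.03 and -0.18. The other trefoil factors were near absent, with at most 9 counts of Tff1 and 6 of Tff2 in any library. Of 29 genes of the plastin and microvillus actin list 22 were tested and 0 passed, with medians of -0.08 and -0.03. The other 2 plastins did not pass: Pls3, found in many tissues, had log2 fold changes of 0.01 and 0.09, and Lcp1, the plastin of blood cells, of -0.16 and -0.22 in fasted and refed liver. Of 20 genes of the calcium and integrin binding list 16 were tested and 0 passed, with medians of 0.01 and -0.02. Cib1 had log2 fold changes of 0.11 and -0.06, Cib2 of -0.06 and -0.24, and Cib4 had 0 counts in every library. At an unadjusted p under 0.05 the selenium, trefoil, plastin and calcium lists had 5, 0, 2 and 2 genes in fasted and 3, 1, 1 and 1 in refed liver, where 10.8% and 9.76% of all tested genes did in either direction.

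Genes known to be higher in males in mouse liver were counted in the same way. All 22 tested male-biased genes had negative log2 fold changes in both states, with median log2 fold changes of -1.22 and -1.13. Of these Mup20, C6, Serpina1e and Gstp1 fell in fasted liver and Mup20 and C6 in refed liver (edgeR adjusted p between 0.0143 and 0.0438), while 18 and 20 did not pass. The fasted count was 0 without control fasted library 4 or low isoleucine fasted library 2 or 3, 1 without low isoleucine fasted library 4, 2 without control fasted library 2 or 3 or any low isoleucine refed library, and 9 without control refed library 3 or 4. The refed count was 0 without low isoleucine refed library 1, 2 or 4 and 4 without control refed library 4. The part of this list in the levels of the 6 genes was not tested.

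Markers of other liver cells gave the following sums beside the same contrasts. Kupffer cell markers spanned 433 to 567 CPM in control fasted, 334 to 423 in low isoleucine fasted, 310 to 688 in refed control livers and 293 to 512 in refed low isoleucine livers, and 0 of 13 passed. Their log2 fold changes were negative for 11 in fasted and 12 in refed liver, with medians of -0.54 and -0.4. In edgeR 7 and 3 of the 13 had an unadjusted p under 0.05, against 10.8% and 9.76% of all tested genes. Lymphocyte markers spanned 14.4 to 16.3, 7 to 14, 10.6 to 29.3 and 8.55 to 14 CPM in the same order of groups. Of 12 tested 1, Cd4, fell in fasted liver, from a mean of 1.62 to 0.481 CPM (edgeR adjusted p = 0.0287). All 12 had negative fasted log2 fold changes, but those of the T cell genes Cd3e, Cd3g and Trac were small, at -0.06, -0.16 and -0.14. Erythroid markers spanned 198 to 252, 246 to 636, 207 to 293 and 174 to 262 CPM, and 1 of 5 tested, the beta-globin gene Hbb-bs, rose in fasted liver (edgeR adjusted p = 0.0275). Endothelial markers spanned 258 to 370, 239 to 377, 169 to 382 and 204 to 314 CPM, stellate cell markers 436 to 582, 388 to 497, 321 to 713 and 368 to 467 CPM, and neutrophil markers 1.22 to 1.49, 1.16 to 1.98, 0.603 to 3.52 and 0.775 to 1.64 CPM, with 0 passing. The hepatocyte markers, of which 0 of 10 passed, spanned 69200 to 102000 CPM in control fasted and 104000 to 124000 in low isoleucine fasted livers. Most of this sum was Alb alone, with means of 54100 CPM in control fasted and 80400 CPM in low isoleucine fasted livers. Of the 10 markers 7 had positive and 3 had negative fasted log2 fold changes. Kupffer cell, lymphocyte and hepatocyte sums did not overlap between the diets in fasted liver, and their part in the levels of the 6 genes was not tested.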

How the data were processed

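Per the labels' protocols, stranded poly-A libraries were prepared from total RNA of snap-frozen liver, and data of several lanes were merged per sample. The authors deposited expected counts from RSEM, 1 value per gene and library, per the file headers. Not given in the sources used here are the aligner, read length, RSEM settings, genome build and annotation; reads shared by paralogs were divided before deposit. R 3.5.3, limma and edgeR are named in the submitters' processing notes. The authors also deposited a table per diet comparison with log2 fold changes, an F score and p-values with adjustment, per the file headers.

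Expected counts were rounded to whole numbers. The tools were edgeR 4.0.16, DESeq2 1.42.0 and limma 3.58.1 under R 4.3.3. After filterByExpr at a minimum count of 10 and a minimum total of 15, counts were scaled by TMM and fitted by edgeR's robust quasi-likelihood method over 16 libraries, 1 mean for each group, with Benjamini-Hochberg adjustment over 14920 genes and a threshold of 0.05. Log2 CPM used a prior count of 2. Correlations within groups were tested by 100000 permutations. Of 51912 identifiers 51633 had a symbol. Positions are from GENCODE M21 (14898 tested genes) and promoters from RefSeq GRCm38.p6; neither need be the build behind the counts. The method was tested on simulated data. The members, lists and tests were chosen with earlier results of these data known. Named were the 6 genes, passing genes of the pathway lists, fixed family relatives, the 3 most alike genes and nearest tested neighbours per gene, and marker genes at 0; the choice of pairs given with values was made after they were seen. Alternatives were other scalings, filters, tests and sample sets, a replicate block and leaving out libraries. Each mouse gave 1 library, so mice were the replicates in every test. In the main edgeR fit the spread between mice was estimated from all 16 libraries, with information shared between genes. The refed tests therefore also drew on the fasted libraries that chose the genes. A further gene list is not reported here.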

Additional observations from a re-analysis of the deposited data

Results flagged for a closer look

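Dixon's gap criterion for 4 samples was applied to 28 combinations of value and group. In 3 of the 28 a single library lay far from the other 3, where chance gives about 1 in 20. Selenbp1 was at 198 CPM in low isoleucine refed library 3, against 221 to 225 CPM in the other 3. Tff3 was at 3.91 CPM in control fasted library 1, against 11.8 to 12.6 CPM in the other 3. Tff3 was at 3.07 CPM in low isoleucine fasted library 3, against 0.477 to 0.764 CPM in the other 3.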

How the results depend on the processing

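Fitting only the compared groups called 3 genes in refed liver in place of 26, and the DESeq2 Wald test called 179. Leaving out 1 library gave 3 to 89 genes, with 3, 6 and 9 without low isoleucine refed library 1, 2 and 4 and 17 and 89 without control refed library 3 and 4. Leaving out both of the latter, chosen after seeing the data, gave 65. The DESeq2 log2 fold changes in refed liver were -3.04 for Cib3, -2.86 for Selenbp2, -2.73 for Tff3 and -1.16 for Upp2, all past the threshold; the cause was not tested. Over fits leaving out 1 library the refed values ran from 0.06 to 0.32 for Selenbp1, -3.19 to -1.72 for Selenbp2, -1.35 to -0.73 for Upp2, -2.99 to -2.46 for Tff3, -1.27 to -0.65 for Pls1 and -3.7 to -2.72 for Cib3. Among these only Tff3 without low isoleucine fasted library 3 passed (-2.73, adjusted p = 0.0371 in edgeR). Without both control refed libraries 3 and 4 Selenbp1 turned to -0.11 (adjusted p = 0.898). The difference in Selenbp2 share ran from -33.5 to -14.3 points. Without a low isoleucine refed library the exact permutation p was 0.0857 or 0.114. The groups were then unequal in size, and the two-sided count took in arrangements with a larger difference of opposite sign. Every remaining low isoleucine refed share was still below every control refed share. The summed feature ran from -0.74 to -0.22. A replicate block by label mark called 25 genes and gave -3.11 for Cib3 (adjusted p = 0.0355 in edgeR) and -2.69 for Tff3 (0.0358). The marks were not shown to pair the samples: deviations of same-marked libraries correlated at -0.325 to 0.323 over genes, and 6 of 16 libraries correlated best with a library of their own mark. In fasted liver the 6 genes kept their sign under 26 alternatives, which is a description, because the fasted values chose 5 of the 6. The alternatives that left out a refed library hardly moved these values. Cib3 ran from -4.73 to -3.45, Tff3 from -3.9 to -2.7 and Selenbp2 from -3.9 to -3.3. Pls1 ran from -2.73 to -1.97, Upp2 from -2.15 to -1.64 and Selenbp1 from -0.37 to -0.15. Depth limits Pls1, Cib3 and Tff3 most, with as few as 4, 6 and 13 counts in a library.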

Other observations

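Library 1 of each group carries the mark RL in the labels, whose meaning is not stated. The library with this mark was the lowest of its group for Tff3 in 4 of 4 groups and for Pls1 and Cib3 in 3 of 4 groups each. For Selenbp1, Selenbp2 and Upp2 it was the lowest in 1 of 4 groups each. The pattern was noticed after the values were seen and was not tested.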
